A study of Homo sapiens with 18 samples.

Results

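The first 376 measured nucleotides of human 18S rRNA, positions 25 to 400, were taken as one region of the 5′ domain. Its members are set by position and by no measured value. They are 376 of the 791 positions read by primer set 3, which covered positions 25 to 815, and of the 1816 distinct positions read in the series. The cells were MDA-MB-231, an established human breast cancer line, and carried either a scrambled control (SCR) or one of 2 knockdowns named KD1 and KD2 in the design text and FBL1 and FBL2 in the library names. The series title is about fibrillarin, so FBL1 and FBL2 are read here as fibrillarin knockdowns, which the labels do not spell out. Each line was treated in culture for 15 min at 37 °C with 2A3, a SHAPE reagent, or with DMSO as background, and the rRNA was reverse transcribed, amplified with 3 primer sets and read on a nanopore instrument. The region therefore rests on 6 libraries, 1 per line and reagent, with no replicate. The labels do not say whether a knockdown is a clone or a pool, and no library measures how far fibrillarin was lowered.

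A SHAPE reagent acylates the 2′-hydroxyl of nucleotides whose backbone is flexible, so bases in loops, bulges and linkers usually react strongly and bases held in helices weakly. Fibrillarin is the methyltransferase of the box C/D small nucleolar ribonucleoproteins, which place 2′-O-methyl groups on rRNA, and a methylated 2′-oxygen has no free hydroxyl to acylate. The 5′ domain of 18S rRNA builds the body of the 40S subunit, and ES3S is one of its expansion segments, a eukaryote-specific insertion near the foot of the subunit.

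The value used throughout is the 2A3 reactivity minus the DMSO reactivity, as a percent of reads at the position, and errors after ± are counting errors computed from the deposited ones. Read depth per position over the 6 libraries ran from 180217 to 459123, and at a reactivity of 1% the counting error of a library lay between 0.0148% and 0.0226%. The deposited values step by 0.1%, so rounding can move one by up to 0.05%. To compare lines, each was also divided by a scaling factor from the whole stretch of the primer set, taken as the mean over positions from the 90th to the 98th percentile of that line, which was 3.00% in SCR cells, 3.48% in FBL1 and 3.13% in FBL2. A position is said to have risen or fallen when its normalized value differed from SCR by at least 0.3 units, with the same sign in FBL1 and FBL2, and by more than the 95% interval of the combined counting error. The rule is one of size only. Single libraries allow no test and no p-value, and both comparisons use the same SCR libraries.

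The sequences of the elements in which positions changed, and of ES3S, are shown first, as the deposited files give them, 5′ to 3′ with U for uridine. Capitals mark the positions that rose or fell in both knockdowns. Segment borders were drawn from textbook knowledge of 18S rRNA, and the hairpins at positions 175 to 218 and 307 to 342 are called helix 9 and helix 10 here.
Helix 6 (positions 62 to 78): guacgcacggcCgguac
A-rich bend (positions 95 to 110): gcucauuAaaucaguu
Helix 9 (positions 175 to 218): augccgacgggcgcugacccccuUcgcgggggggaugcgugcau
ES3S (positions 219 to 302): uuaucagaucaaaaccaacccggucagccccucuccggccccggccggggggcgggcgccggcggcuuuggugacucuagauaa
Helix 10 (positions 307 to 342): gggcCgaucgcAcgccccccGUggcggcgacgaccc
Stretch before helix 11 and helix 11 tip (positions 353 to 393): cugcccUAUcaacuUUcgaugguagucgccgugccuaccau

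The capitals mark 12 nucleotides, 5 that rose and 7 that fell. The rises lay in 3 elements, the A-rich bend, the loop of helix 9 and helix 10 between A318 and U328. The falls lay in helix 6, the 5′ side of helix 10 and the stretch before helix 11. None of the 84 positions of ES3S is among them, which depends on the scaling and threshold as given below. Rises made up 1.33% of the 376 positions, against 1.14% of all 791 positions of the stretch, and falls 1.86% against 1.01%. Of the other 415 positions of the stretch, 4 rose and 1 fell. The share that rose was therefore close to that of the whole stretch, and no difference between the region and the rest was tested.

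In SCR the region was mostly unreactive, with a few strong sites. The median 2A3 minus DMSO value was 0.1% in SCR, with 0.2% in FBL1 and 0.1% in FBL2. In SCR 236 of the 376 positions were at 0.1% or below, and 57 reached 1%. The 12 highest positions of SCR carried 39.1% of the region's signal in SCR, and the same positions carried 38.9% in FBL1 and 40.7% in FBL2. Of these 12, 9 were also among the 12 highest of FBL1 and 11 among the 12 highest of FBL2. A102 was highest in SCR, followed by U328, C73, A103 and G327, and these 5 were also among the 6 highest positions of FBL1 and of FBL2.

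**Figure D1:**
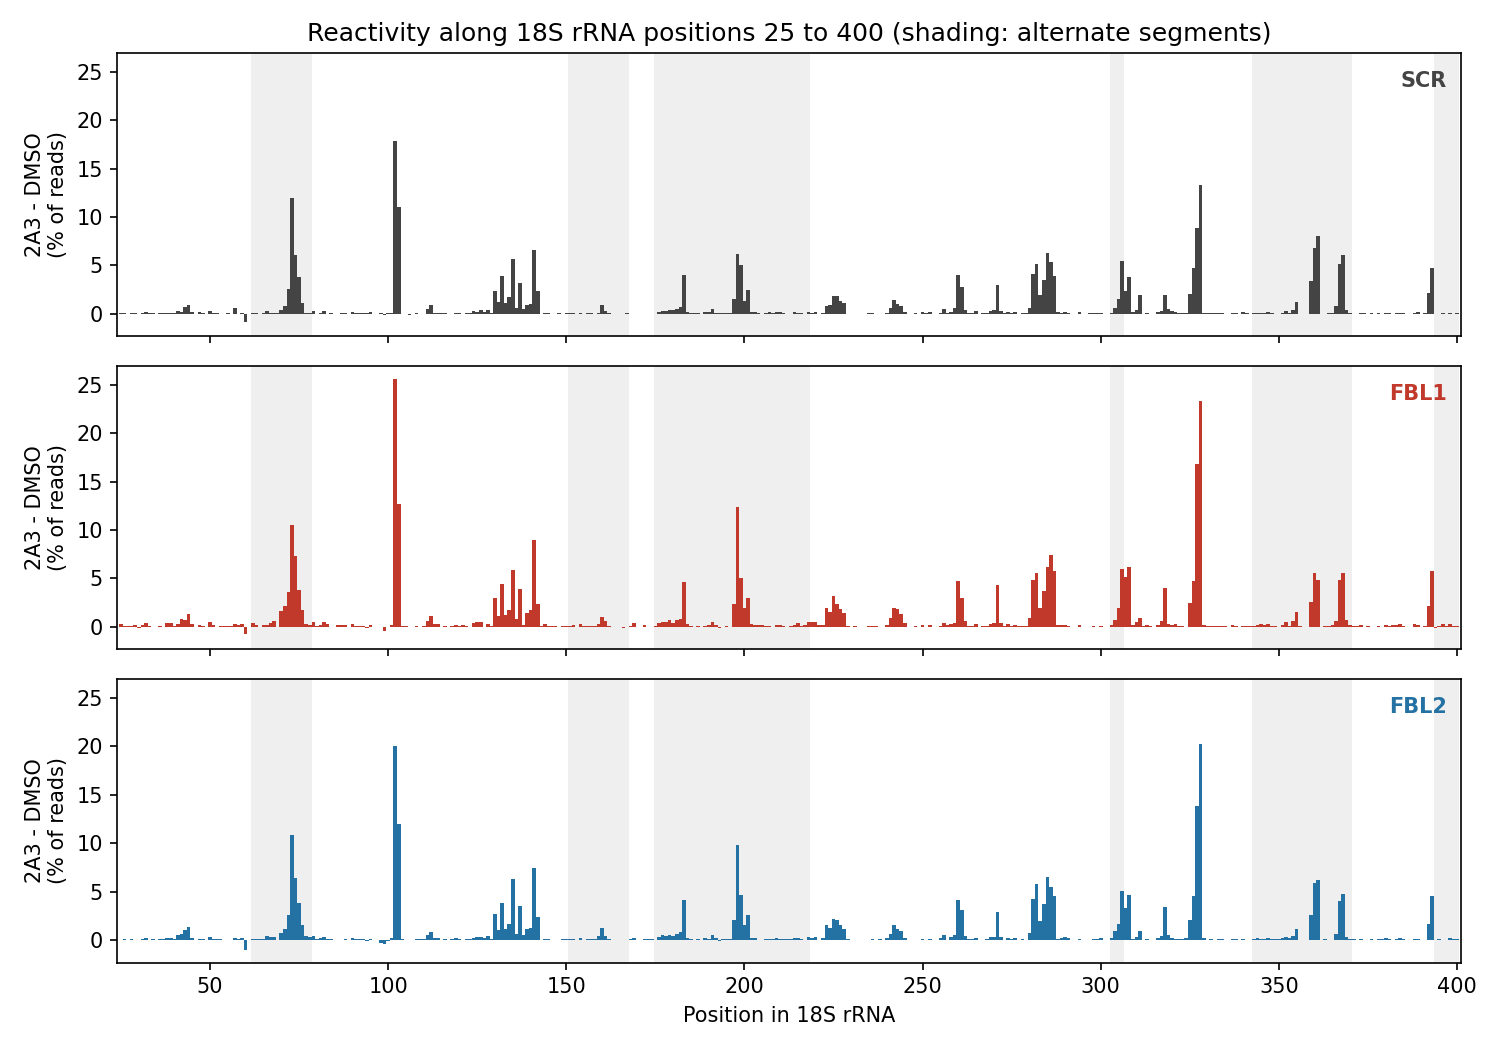
2A3 minus DMSO reactivity in percent of reads (y axis) at positions 25 to 400 of 18S rRNA (x axis), 1 panel per line and 1 bar per position, with alternate segments shaded. The strong sites lie at the same positions in the 3 lines, and the bar at A102 reaches 17.8% in SCR against 25.6% in FBL1 and 20.0% in FBL2.

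Before scaling, the region was more reactive in both knockdowns. Its mean was 0.741% ± 0.00134 in SCR cells, 0.956% ± 0.00148 in FBL1 and 0.809% ± 0.00136 in FBL2, which is 1.29 times SCR in FBL1 and 1.09 times SCR in FBL2. The rest of the stretch had means of 0.397% in SCR, with 0.544% in FBL1 and 0.452% in FBL2, ratios of 1.37 and 1.14. By this ratio of means the excess was not larger in the region than beside it. Among the 57 positions with at least 1% in SCR, both knockdowns were above SCR at 34 and both below at 8, and the median ratio to SCR was 1.20 in FBL1 and 1.05 in FBL2. At such positions in the rest of the stretch the median ratio was 1.14 in FBL1 and 1.08 in FBL2. By this measure FBL1 was higher in the region than beside it and FBL2 lower. DMSO values were also somewhat higher in the knockdowns. A single position, G60, made up 65.0% of the region's DMSO signal in SCR, and without it the mean DMSO value was 0.137% in SCR against 0.148% in FBL1 and 0.151% in FBL2, which is 1.08 and 1.10 times SCR. In the rest of the stretch it was 0.13%, 0.15% and 0.15%. The part of this background in the excess, which is measured after DMSO subtraction, was not tested.

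The bases differed in level and in how far the knockdowns stood from SCR. Uridines had the highest mean, 1.10% in SCR cells, 1.42% in FBL1 and 1.22% in FBL2 over 86 positions. Guanosines had the lowest in SCR, 0.568%, with 0.818% in FBL1 and 0.658% in FBL2 over 103 positions, and cytidines had 0.617%, 0.690% and 0.610% over 115. The FBL1 mean was 1.44 times SCR for guanosine, 1.35 for adenosine, 1.29 for uridine and 1.12 for cytidine. For FBL2 the ratios were 1.16, 1.13, 1.11 and 0.989 in the same order. Of the 12 changed positions, 6 were uridines, 2 that rose and 4 that fell, while 19 of the 57 positions with at least 1% in SCR were uridines.

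**Figure D2:**
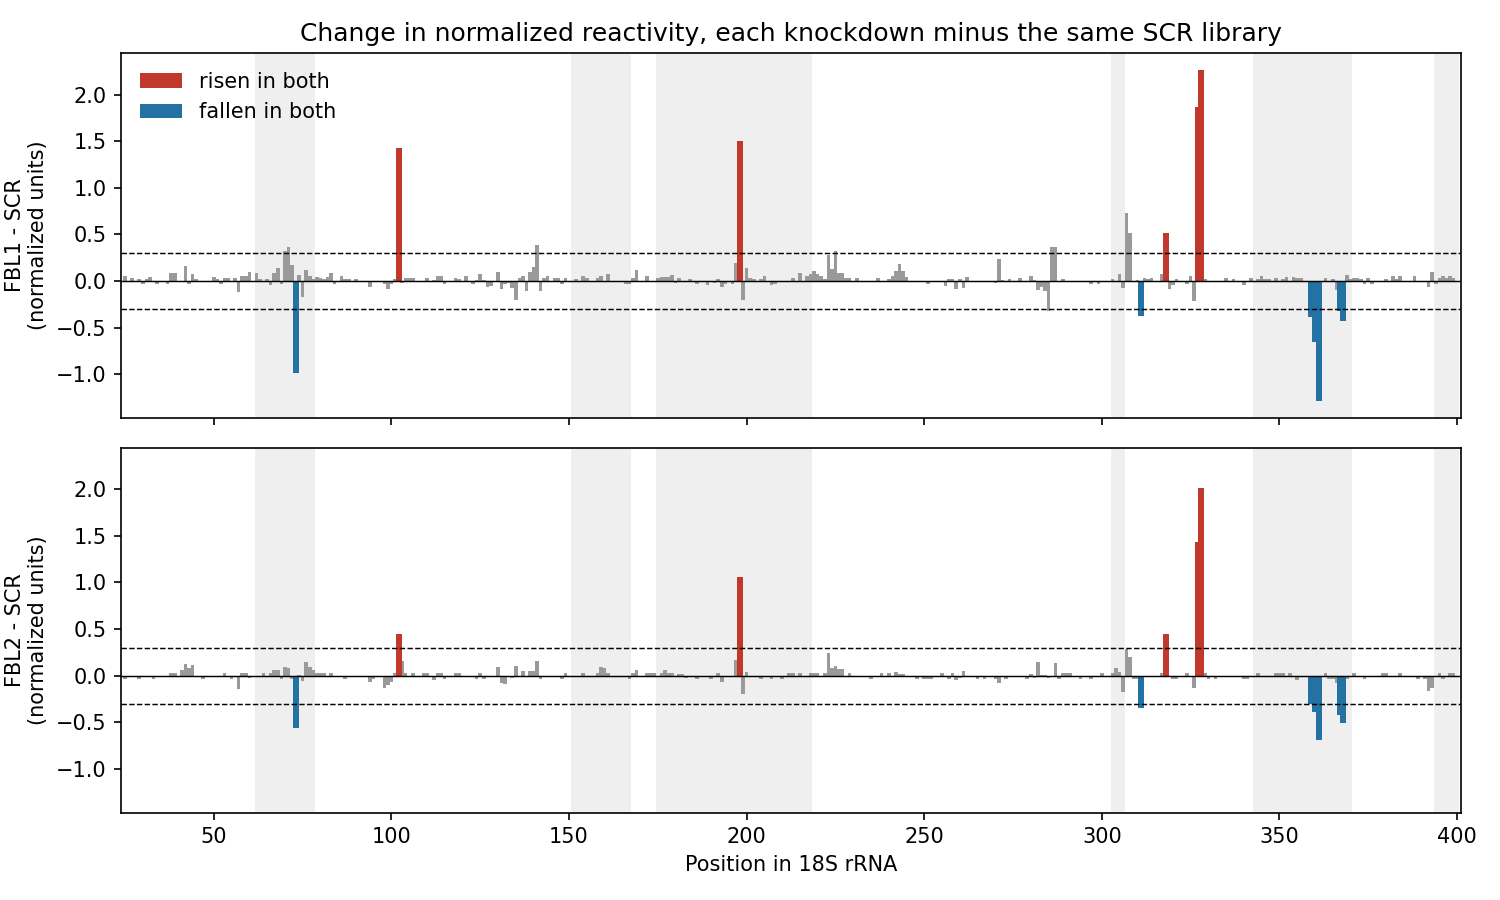
Normalized reactivity of FBL1 (upper panel) and FBL2 (lower panel) minus that of the same SCR libraries, in normalized units (y axis), by position in 18S rRNA (x axis). Red bars rose and blue bars fell in both knockdowns, grey bars did neither, and dashed lines mark 0.3 and -0.3 units. The 2 tallest bars in both panels are U328 and G327.

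The apical part of helix 10 held the largest rises. At U328 the 2A3 value was 13.6% in SCR, with 23.6% in FBL1 and 20.6% in FBL2, over DMSO values of 0.3%, 0.3% and 0.4%. The difference was 13.3% ± 0.0804 in SCR against 23.3% ± 0.109 in FBL1 and 20.2% ± 0.0995 in FBL2, a change of 2.27 and 2.01 normalized units. Both knockdowns stood above SCR by many times the counting error, and U328 became the most reactive position of the region in FBL2. Its 5′ neighbour G327 went the same way, with 8.9% ± 0.0652 in SCR against 16.8% ± 0.0922 in FBL1 and 13.8% ± 0.0815 in FBL2, changes of 1.86 and 1.44 units. The rise ended sharply on both sides. C326 had 4.7% in SCR cells, 4.7% in FBL1 and 4.5% in FBL2, and G329 had 0.1%, 0.2% and 0.2%. Within the same hairpin A318 had 1.9% ± 0.0335 in SCR, with 4.0% ± 0.0466 in FBL1 and 3.4% ± 0.0428 in FBL2 and rose by 0.52 and 0.45 units. A318 is the only base with at least 1% in any line between positions 312 and 324.

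C311, on the 5′ side of the same hairpin, fell. It had 1.9% ± 0.0335 in SCR against 0.9% ± 0.0262 in FBL1 and 0.9% ± 0.0253 in FBL2, below SCR by 0.38 and 0.35 units. Fall and rise thus stood 7 positions apart in one hairpin. At the foot of the hairpin, G307 had 2.3% in SCR cells, 5.2% in FBL1 and 3.3% in FBL2, changes of 0.73 and 0.29 units, and G308 had 3.8%, 6.2% and 4.6%, changes of 0.52 and 0.20. Both passed the rule in FBL1 alone. G307 passed in both knockdowns without DMSO subtraction, without scaling, and with 90th percentile or box-plot scaling. When each base had its own factor, and with a threshold of 0.2, G307 and G308 both passed in both knockdowns. G307 is the position just outside the threshold for a rise, while A102 and A318 are the positions just inside it, at 0.44 and 0.45 units in the knockdown with the smaller change.

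Over all 36 positions of helix 10 the mean was 1.18% ± 0.00437 in SCR, with 1.89% ± 0.00549 in FBL1 and 1.55% ± 0.00491 in FBL2. These are 1.60 and 1.32 times SCR, against 1.29 and 1.09 over the region. The 3 nucleotides that rose made up 78.4% of the hairpin's excess over SCR in FBL1 and 98.5% in FBL2, and without the 4 changed positions the ratios were 1.40 and 1.07. The listed stem of the hairpin, positions 314 to 317 with 333 to 336, had a median of 0.05% in SCR against 0.1% in FBL1 and 0.05% in FBL2.

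In helix 9 the 5 bases of the loop, positions 197 to 201, reached 1% in SCR, and so did a single base outside it, G183, with 4.0%, 4.6% and 4.1%. Of these, U198 alone rose. U198 had a 2A3 value of 6.3% in SCR cells, 12.5% in FBL1 and 9.9% in FBL2 over a DMSO value of 0.1% in each line. The difference was 6.2% ± 0.0551 in SCR, with 12.4% ± 0.0800 in FBL1 and 9.8% ± 0.0697 in FBL2, or 1.5 and 1.06 normalized units above SCR. The FBL1 value was 2.0 times and the FBL2 value 1.58 times that of SCR. The next base, C199, had 5.0%, 5.1% and 4.6% and is the position just outside the threshold for a fall, at -0.20 units in both knockdowns. U197 had 1.5%, 2.4% and 2.1%, G200 had 1.3%, 2.0% and 1.5%, and C201 had 2.5%, 3.0% and 2.6%. The loop's bases kept their order in the 3 lines and differed in proportion, with U198 at 1.24 times C199 in SCR, 2.43 times in FBL1 and 2.13 times in FBL2. The stem next to the loop, positions 192 to 196 with 202 to 206, had a highest value of 0.2% in SCR against 0.3% in FBL1 and 0.2% in FBL2. Without U198 the helix 9 mean was 1.23 times SCR in FBL1 and 1.05 times in FBL2.

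In the A-rich bend between helix 6 and helix 8, 2 neighbouring adenosines carried the signal, and no other base from position 95 to 110 exceeded 0.2% in any line. A102 had 17.8% ± 0.0969 in SCR cells, 25.6% ± 0.119 in FBL1 and 20.0% ± 0.103 in FBL2, and rose by 1.43 and 0.44 units. A103 had 11% ± 0.0759, 12.7% ± 0.0836 and 12.0% ± 0.0798, which is -0.02 and 0.16 units from SCR. A104, the next adenosine, had 0.0%, 0.1% and 0.1%. The largest site of the region was thus higher in both knockdowns, by less in FBL2, while the ratio of its neighbour to the scaling factor moved little. The call at A102 depends on that factor: with values at the edges of the percentile window left out the FBL2 change was 0.19 units, too small for the rule, with 90th percentile scaling it was -0.36 while FBL1 stayed above SCR, and with box-plot scaling A102 turned into a fall.

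The pyrimidine-rich run at positions 129 to 142, in the same segment, was broadly reactive, and none of its positions changed in both knockdowns. Its mean was 2.23% ± 0.00918 in SCR, with 2.63% ± 0.0103 in FBL1 and 2.39% ± 0.00965 in FBL2. A141, its strongest base, had 6.6% ± 0.0570 in SCR against 9.0% ± 0.0685 in FBL1 and 7.4% ± 0.0615 in FBL2, changes of 0.39 and 0.16 units, and passed the rule in FBL1 alone. U135 had 5.7%, 5.9% and 6.3%. In most of this run uridines alternated with weaker cytidines, as at U132 with 3.9% and C133 with 1.1% in SCR.

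Helix 6 held the first fall. C73, in the loop, had 12.0% ± 0.0799 in SCR cells, 10.5% ± 0.0773 in FBL1 and 10.8% ± 0.0763 in FBL2, lower by 0.98 and 0.56 normalized units. Its 3′ neighbour G74 had 6.1%, 7.3% and 6.4%, changes of 0.07 and 0.01. On its 5′ side G71 had 0.8%, 2.2% and 1.1%, and G70 had 0.4%, 1.6% and 0.7%, and both passed as rises in FBL1 alone. The loop's profile was thus less concentrated on C73 in FBL1, with a higher 5′ shoulder. G75, listed as the first base of the stem's 3′ strand, had 3.8% in every line, above the median of the listed stem bases.

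The stretch before helix 11 was the one segment that was less reactive in both knockdowns before scaling. Its mean was 1.20% ± 0.00477 in SCR, with 1.06% ± 0.00466 in FBL1 and 0.993% ± 0.00441 in FBL2, 0.878 and 0.825 times SCR. It held 5 of the 7 falls in 2 short runs, and its other 23 positions together were 1.44 times SCR in FBL1 and 1.0 times in FBL2. In the first run U361 had 8.0% ± 0.0612 in SCR against 4.8% ± 0.0495 in FBL1 and 6.2% ± 0.0542 in FBL2, changes of -1.29 and -0.69 units. A360 had 6.8% ± 0.0564, 5.6% ± 0.0527 and 5.9% ± 0.0529, changes of -0.66 and -0.39. U359 had 3.4%, 2.6% and 2.6%, changes of -0.39 and -0.30, and lies at the threshold. All 3 were highest in SCR, and U361, the most reactive of them in SCR, was below A360 in FBL1.

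In the second run, 6 positions further 3′, U367 had 5.1% ± 0.0489 in SCR cells, 4.8% ± 0.0487 in FBL1 and 4.0% ± 0.0435 in FBL2, changes of -0.32 and -0.42 units. U368 had 6.1% ± 0.0542, 5.6% ± 0.0533 and 4.8% ± 0.0484, changes of -0.42 and -0.50. This pair was lower in FBL2 than in FBL1, the reverse of the order at U361 and A360. Of the bases between the runs, positions 362 to 365 had at most 0.1% in SCR, with 0.2% in FBL1 and 0.1% in FBL2. U366, next to the second run, stayed below 1% in SCR and passed as a fall with box-plot scaling only. Without scaling, U359 missed the size rule in both knockdowns, and U367 and U368 missed it in FBL1 only, at -0.10 and -0.17 SCR units against -0.37 and -0.43 in FBL2. When each base had its own factor the same 3 calls were lost, with U368 short in FBL1 at -0.26 and past the threshold in FBL2 at -0.30.

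All 7 positions that fell were also lower in both knockdowns before scaling, by 0.3% to 3.2% of reads in FBL1 and 0.8% to 1.8% in FBL2. They are 7 of the 8 positions with at least 1% in SCR that were lower in both. With the scaling factor taken from positions 25 to 400 alone, C73 and U361 remained as falls and all 5 rises remained. That factor is larger, 4.11% in SCR, so a given change in reads is worth fewer units. Of the 5 falls lost, A360 reached 0.3 units in FBL1 alone, at -0.46, and U368 in FBL2 alone, at -0.34.

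**Figure D3:**
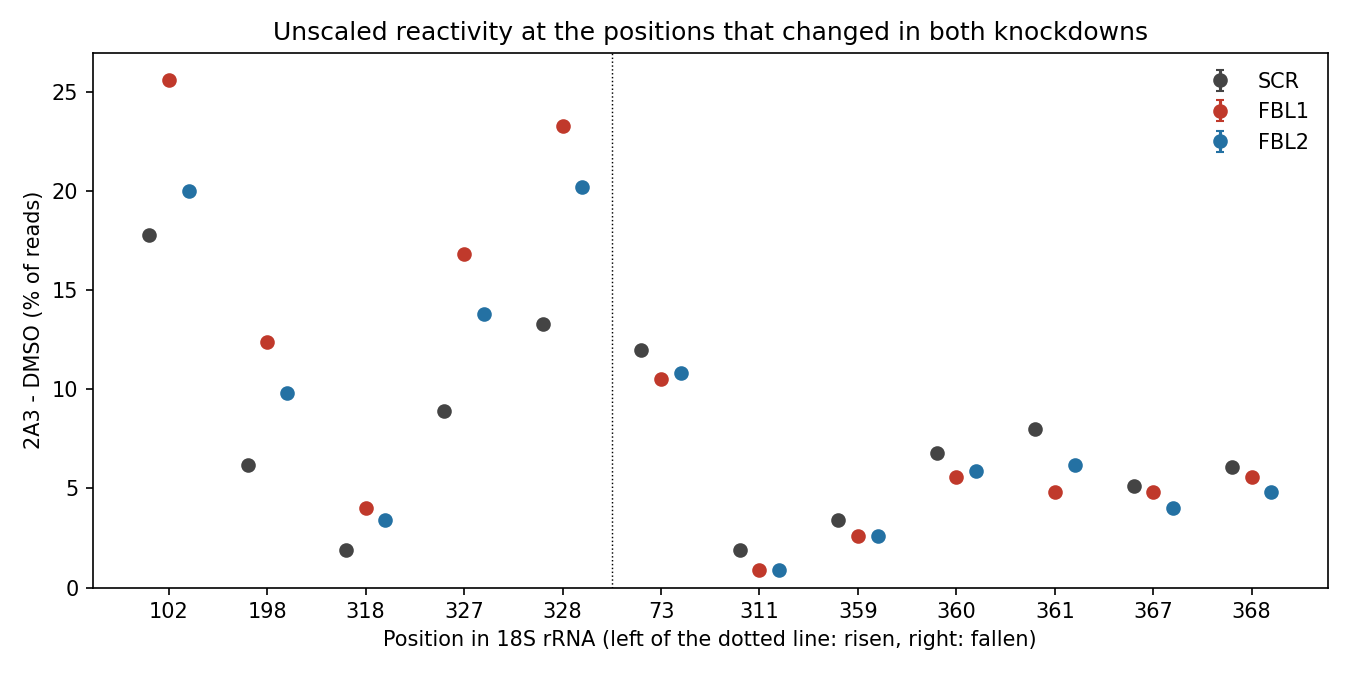
2A3 minus DMSO reactivity in percent of reads (y axis, from 0) at the 12 positions that changed in both knockdowns (x axis, rises left of the dotted line and falls right of it), with 1 point per line and counting errors smaller than the symbols. At each rise both knockdowns lie above SCR, at each fall both lie below, and FBL2 lies between SCR and FBL1 at the 5 rises.

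ES3S was measured in full, 84 positions from 219 to 302, and was moderately reactive. Its mean was 0.704% ± 0.00234 in SCR against 0.899% ± 0.00267 in FBL1 and 0.760% ± 0.00243 in FBL2, beside 0.752%, 0.972% and 0.824% over the 292 positions outside it. In normalized units the ES3S mean of SCR was 0.23 and that of the other positions 0.25, a difference of -0.0163. The medians of ES3S and of the other positions were equal in SCR. ES3S was 1.28 times SCR in FBL1 and 1.08 times in FBL2, next to 1.29 and 1.09 over the region, so by this ratio of means its excess before scaling was close to that of the region. At 13 of its 16 positions with at least 1% in SCR both knockdowns were above SCR, at none were both below, and the median ratios there were 1.30 and 1.08. Outside ES3S both were above at 21 of 41 such positions and below at 8, with median ratios of 1.20 and 1.025. This difference was not tested.

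Most of the signal of ES3S lay in 5 sites, separated by long quiet stretches. The strongest was the run from C281 to U287 on the 3′ side, with a mean of 4.30% ± 0.0179 in SCR cells, 5.07% ± 0.0200 in FBL1 and 4.60% ± 0.0186 in FBL2 and all 7 bases above 1% in SCR. Within it U285 had 6.3% ± 0.0573, 6.2% ± 0.0588 and 6.5% ± 0.0585, which is -0.32 units in FBL1 and -0.03 units in FBL2. U286 had 5.3%, 7.4% and 5.5%, and U287 had 3.9%, 5.8% and 4.5%, and both passed as rises in FBL1 alone. The 3 adjacent uridines thus differed in FBL1 and not in one direction, while in FBL2 they stayed within 0.6% of SCR.

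The other sites lay at positions 223 to 228, around U242, at C260 and G261, and at C271. C223, in the basal stem of the segment, had 0.8% ± 0.0231 in SCR, with 1.9% ± 0.0335 in FBL1 and 1.6% ± 0.0304 in FBL2. Its changes of 0.28 and 0.24 units were the largest mean change of ES3S and fell short of the threshold. C223 passed as a rise with 90th percentile scaling, with box-plot scaling, when each base had its own factor and with a threshold of 0.2. U285 passed as a fall with 90th percentile scaling, and U285 and other ES3S bases did with box-plot scaling. The lack of calls in ES3S thus depends on the setting. G225 had 1.8%, 3.2% and 2.2% and passed as a rise in FBL1 alone. The GC-rich tip, positions 237 to 280, was quiet apart from 3 short sites, with a mean of 0.443% in SCR against 0.566% in FBL1 and 0.446% in FBL2. C260 had 4.0%, 4.7% and 4.1%, G261 had 2.8%, 3.0% and 3.1%, and C271 had 3.0%, 4.3% and 2.9%. In FBL2 the tip was thus 1.01 times SCR, and in FBL1 1.28 times.

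**Figure D4:**
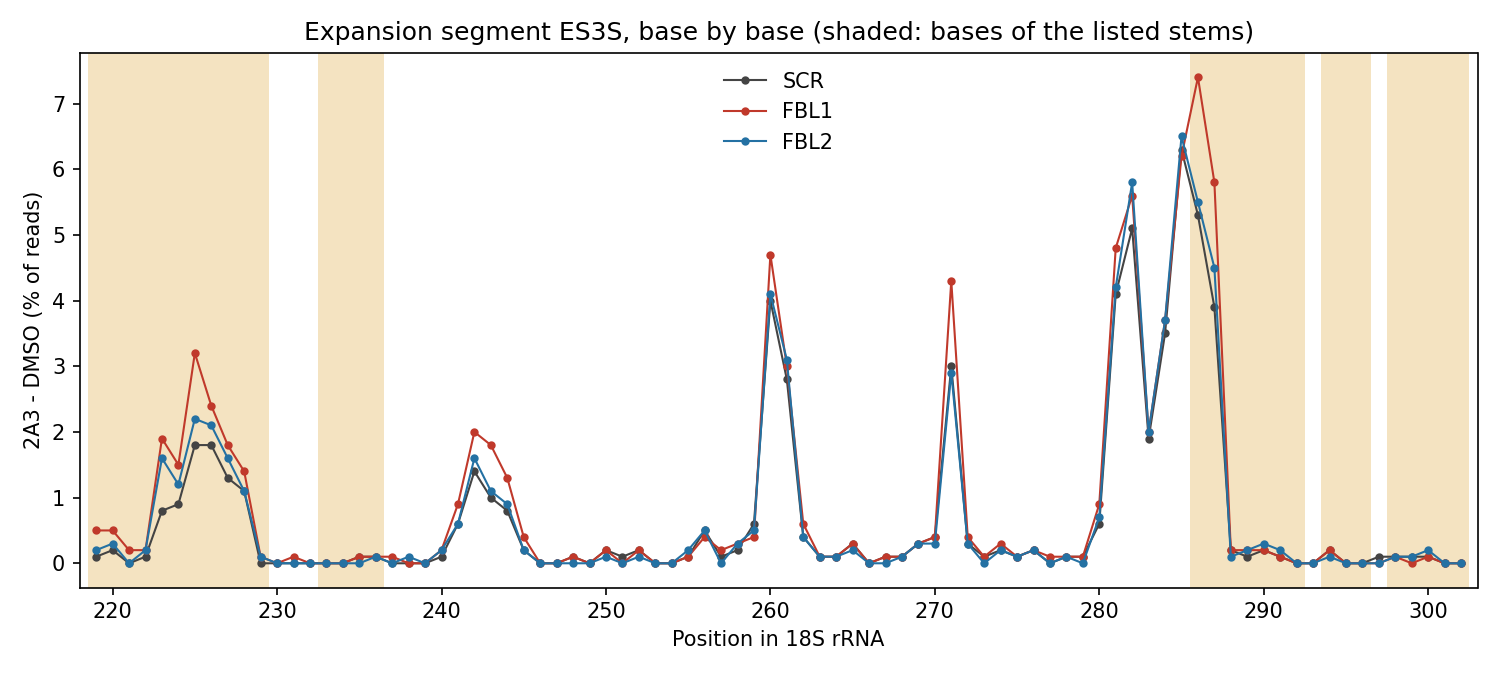
2A3 minus DMSO reactivity in percent of reads (y axis) at each position of ES3S, 219 to 302 (x axis), in SCR, FBL1 and FBL2, with bases of the listed stems shaded. The lines rise together at the same sites, the highest at positions 281 to 287, and the shaded stem there includes U286 at 5.3%, 7.4% and 5.5%.

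The listed stems were checked against the sequence and the signal. All 12 stems were complementary at every listed pair. Their 94 bases had a mean of 0.377% in SCR cells, 0.535% in FBL1 and 0.422% in FBL2, against 1.03%, 1.40% and 1.19% over the 127 other bases of the same hairpins. At least 1% in SCR was nevertheless reached by 10 stem bases, among them U286 and U287 in ES3S, G75 and U76 in helix 6, and A392 and U393 at the end of helix 11. None of the 94 stem bases rose or fell in both knockdowns in the main setting, while G225, U286 and U287 passed as rises in FBL1 alone. All 12 changed positions had at least 1% in SCR, a level that only these 10 stem bases reached. Of the 57 such positions in the region 8.77% rose and 12.3% fell. At those shares 10 bases would hold few calls or none. A minimum-energy fold of each isolated hairpin gave the listed partner for 8 of 8 stem bases in helix 10, for 14 of 30 in ES3S and for 6 of 24 in helix 9. The pairing of ES3S and helix 9 is therefore uncertain here, and the names of stems and loops above follow the listed pairing. In helix 9 the fold also leaves U198 to C201 unpaired, while it pairs U197 with G202. In helix 10 the listed stem covers only 8 bases, while the fold pairs 26 of the 36. Among the paired bases are C311, which fell, and G307 and G308, which in the main setting rose in FBL1 alone. A318, G327 and U328, which rose, are unpaired in the fold, A318 as a single base between the paired C317 and C319.

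The other segments were quiet. The 5′ strands of helices 3 to 5, positions 25 to 61, had a mean of 0.119% in SCR, with 0.197% in FBL1 and 0.141% in FBL2, with U44 highest at 0.9%, 1.3% and 1.3%. The helix 8 hairpin had 0.118%, 0.171% and 0.165%, with its highest value at U160. The linker from C168 to C174 was listed at a difference of 0 at all 7 positions in SCR, with means of 0.1% in FBL1 and 0.0857% in FBL2. The short linker after ES3S, positions 303 to 306, was an exception, with a mean of 1.90%, 2.23% and 1.98%, mostly from C306 at 5.4%, 6.0% and 5.1%. The helix 11 tip had 0.352%, 0.448% and 0.330%, most of it at A392 with 2.1%, 2.2% and 1.7% and U393 with 4.7%, 5.8% and 4.5%.

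**Figure D5:**
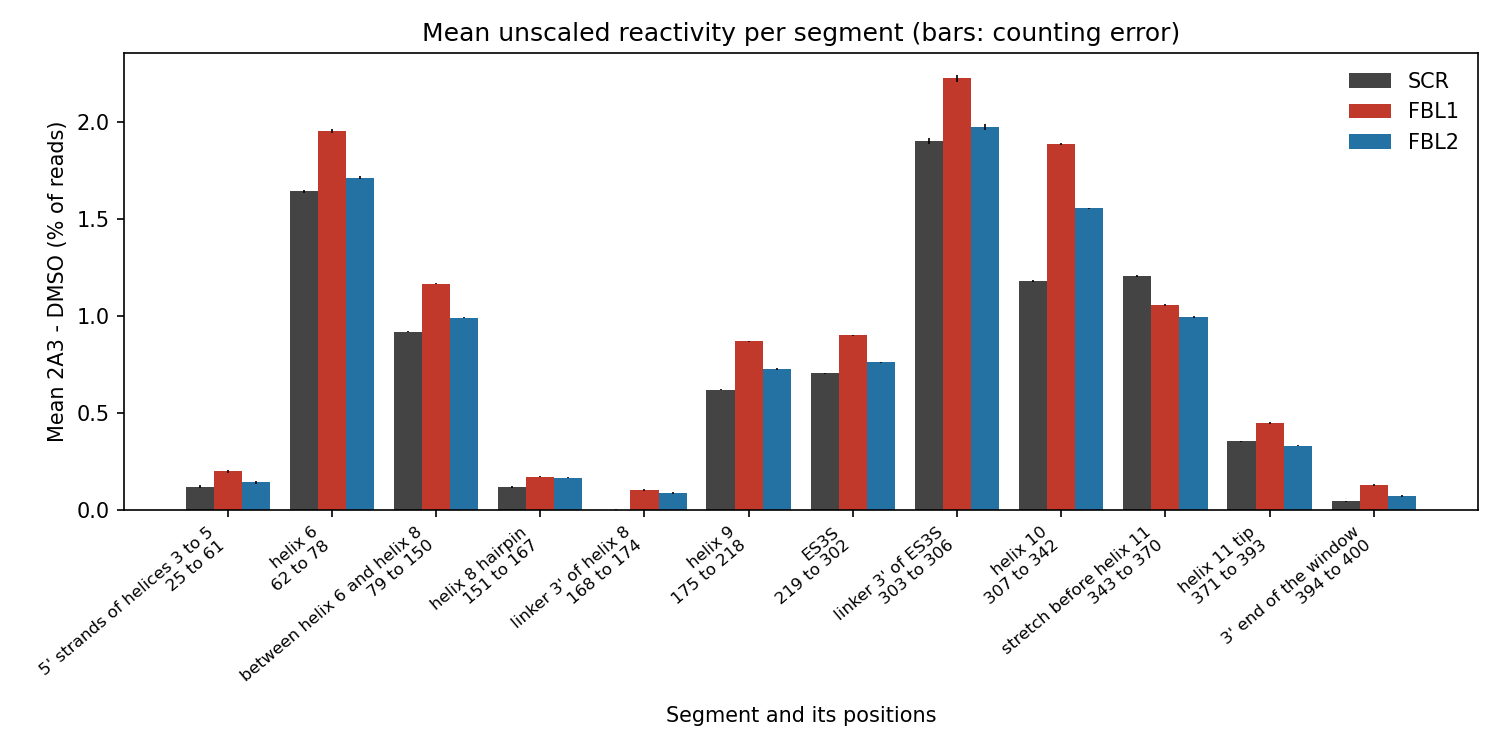
Mean 2A3 minus DMSO reactivity in percent of reads (y axis, from 0) for the 12 segments of positions 25 to 400 (x axis), 1 bar per line with the counting error. Helix 10 stands at 1.18% in SCR against 1.89% in FBL1 and 1.55% in FBL2, and the stretch before helix 11 has its highest bar in SCR.

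No nucleotide listed as modified met the rule. Of the 9 listed 2′-O-methylated nucleotides, which textbook maps place at A27, A99, U116, U121, A159, A166, U172, C174 and U354, none rose or fell. The median over them was 0.0% in SCR cells, 0.1% in FBL1 and 0.1% in FBL2, and the highest value was that of U354 with 0.4%, 0.6% and 0.4%. Their median change was 0.03 normalized units in FBL1 and 0.00 in FBL2, beside 0.00 in both over all 791 positions. The 0.03 units are a single step of 0.1% in the deposited values, as at A27 with 0.0% in SCR and 0.1% in FBL1. U354 lies 5 positions 5′ of the first run of falls. The 9 listed pseudouridines, at positions 34, 36, 93, 105, 109, 119, 210, 218 and 296, had a median of 0.1% in each line, and none rose or fell. Their highest SCR value was 0.2%. Over both lists the highest SCR value was 0.13 normalized units, at U354, so a fall of 0.3 units was practically out of reach. In the region 1.33% of positions rose and 1.86% fell, and at those shares lists of 9 sites would hold few calls or none.

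Background bears on 3 positions, those with a DMSO value of 1% or more. After DMSO G60 stood at 95.4% in SCR against 95.5% in FBL1 and 95.4% in FBL2, and after 2A3 at 94.5%, 94.8% and 94.4%, so its differences of -0.9%, -0.7% and -1.0% are small beside the background. A99 had DMSO values of 1.5%, 1.6% and 1.7% and 2A3 values of 1.4%, 1.2% and 1.3%. A159 had DMSO values of 1.4%, 1.3% and 1.2% and 2A3 values of 1.5%, 1.6% and 1.6%. A99 and A159 are both listed 2′-O-methylated adenosines, and both kept this background in every line. At the 12 changed positions the DMSO value was at most 0.4%.

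The knockdowns differed from each other as well as from SCR. FBL1 alone passed the rule at 13 positions upward, 3.46% of the region against 2.28% of the stretch, and at 8 downward, 2.13% against 1.39%. FBL2 alone passed at 5 upward, 1.33% against 1.26%, and at 7 downward, 1.86% against 1.01%. Every position that passed in FBL2 also passed in FBL1 in the same direction, and no position passed in opposite directions. The 9 that passed in FBL1 alone were G70, G71, A141, G225, U286, U287, G307 and G308 upward and U285 downward. Because both knockdowns were set against the same SCR libraries, shared calls are not independent of each other, and whether FBL1 and FBL2 differ at these positions was not tested.

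A fall of 0.3 units needs a site with about that much signal in SCR or more. All 12 changed positions had at least 1% in SCR. Among positions with at least 1% in SCR, 5 of 57 rose in the region (8.77%) and 4 of 35 in the rest of the stretch (11.4%), while 7 of 57 fell (12.3%) and 1 of 35 fell in the rest (2.86%). The falls of this primer set thus lay mostly in the region, 5 of the 8 of them within positions 359 to 368, a count that was not tested.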

How the data were processed

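Reactivity per position was deposited as a fraction of reads, in steps of 0.1%, beside its error and the coverage, a signal giving the read depth. The percent difference between reagents that the authors deposited equalled the one recomputed here at all 791 positions. Bowtie2 and SAMtools are named, without versions, in the submitters' processing notes, and the reference build and the kind of event counted were not found in labels or headers. Amplified reads carry no molecular identifiers, so errors cover counting only and not independent molecules, and duplicate wells named in the design text may have been pooled.

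DMSO was subtracted, each line was scaled on all 791 positions at a depth of at least 100 reads, and calls were made on the whole stretch. Named are positions that met the size rule, the 12 highest in SCR, those with DMSO of 1% or more, listed modified nucleotides, the largest change per segment in each direction, and neighbours within 3 positions. Other named positions and the runs within segments were chosen after their values were seen, and the region, lists and segments with earlier results of these data known. The scaling window includes its bounds, a choice kept after other bounds had been looked at, and ties from rounding make the factor depend on it. The calling step was tested on simulated data with counting noise and rounding only. That test held no variation between cultures and no gain that differed between bases, so it does not cover them. Alternatives covered subtraction, scaling, thresholds, rounding, smoothing and single lines. Folds used ViennaRNA 2.7.2, other steps Python 3.11.15, numpy 2.4.6, pandas 2.3.3 and matplotlib 3.10.9. Positions are those of the deposited files.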

Additional observations from a re-analysis of the deposited data

How the results depend on the processing

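The rises at U198, G327 and U328 and the fall at U361 were called under every alternative that kept SCR as the reference, and the other calls depended on the setting. Counts of 5 rises and 7 falls became 7 and 4 without scaling, 6 and 13 with 90th percentile scaling, 11 and 54 with box-plot scaling, 8 and 4 when each base had its own factor, and 5 and 2 with the factor taken from positions 25 to 400, while median-ratio scaling left 5 and 7. Box-plot scaling uses a much smaller unit, so the 0.3 threshold spans less reactivity there. With it the mean normalized change over both knockdowns was -4.32 at A102, -5.78 at A103, -3.26 at G74, -2.05 at A141 and -0.49 at U305, all of them turned from above to below SCR, and with 90th percentile scaling A103 stood at -0.49. Without DMSO subtraction 6 rose and 6 fell, among them G60 at -2.24 units. Before scaling its 2A3 values were close, 94.5% in SCR, 94.8% in FBL1 and 94.4% in FBL2. A threshold of 0.2 gave 8 and 8 and one of 0.5 gave 3 and 2. A sliding mean of 3 positions gave 7 and 2, with C199 at 0.39. Leaving out the percentile window's bounds, an alternative chosen after seeing the data, gave 4 and 7. Without FBL1 the counts were 5 and 7, and without FBL2 13 and 8. With FBL1 in the place of SCR 2 rose and 6 fell, and with FBL2 there 0 rose and 0 fell. The region's mean ratio to SCR, 1.29 in FBL1 and 1.09 in FBL2, was 1.2 and 1.07 without DMSO subtraction, and its median counterpart at positions of at least 1% was 1.2 and 1.05. The ES3S difference in SCR of -0.0163 units was -0.105 without DMSO subtraction. The positions outside ES3S then include G60 at its full 2A3 value of 94.5% in SCR. The difference was -0.0340 with helix 9 added, -0.0199 without positions of high DMSO and 0.00 for medians. The cause of these shifts was not tested. Over the 12 changed positions, 109 of the recomputed values kept direction and call, 22 kept the direction and lost the call, and 1 reversed. No paired analysis was possible because each line and reagent has 1 library. At weak sites the 0.1% steps limit precision more than depth does, at the strongest sites depth does, and variation between cultures was not measured.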
